A study of Mus musculus with 35 samples.

Results

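Platelet-derived growth factor (PDGF) receptors, their ligands, the related receptor KIT with its ligand, and the AKT kinases were followed while GATA6 turned mouse embryonic stem (ES) cells towards primitive endoderm (PrE). The genes were chosen by name: the receptors Pdgfra, Pdgfrb and Kit, the ligands Pdgfa, Pdgfb, Pdgfc and Kitl, and the kinases Akt1 and Akt2. All 9 were among the 44853 genes of the induction table, and 7 of them, without Pdgfrb and Pdgfb, were among the 6275 genes of the siRNA table. That second table held genes which had responded to GATA6, so the other two were not analysed here under siRNA.

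PDGF ligands are secreted dimers that bring receptor chains together at the cell surface, and the paired receptors then phosphorylate each other on tyrosines. PDGFRA binds ligands made from Pdgfa, Pdgfb and Pdgfc, while PDGFRB mainly binds the product of Pdgfb, and KIT binds the product of Kitl. From such receptors PI3-kinase makes the lipid PIP3, which recruits AKT kinases that promote survival and growth. In the mouse blastocyst PDGFRA marks the PrE lineage, and its signalling is known for keeping these cells alive.

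Polyadenylated RNA was measured in 35 libraries. The question was how GATA6 redirects ES cells and what the pluripotency factor Oct4, encoded by Pou5f1, contributes. The induction series held 23 libraries. KH2 ES cells of mixed C57BL/6 and 129/Sv background carried a doxycycline (Dox) inducible GATA6 cassette with an HA tag, and gave 3 libraries without Dox (0 h) and 3 at each later time, 16, 24, 48, 72, 96 and 168 h, in 1 µg/mL Dox. They grew in serum with LIF on inactivated mouse embryonic fibroblasts, which were removed by adsorption before lysis. XEN cells, an extra-embryonic endoderm line, were represented by 2 libraries of the wild-type X10 line, from CD1 mice, without the cassette. They too grew on fibroblasts, in serum without LIF. The study describes removal of fibroblasts for the inducible ES cells. In the siRNA series, 1 clone with the inducible cassette (G6.3) received control siRNA (siCTL) or a pool against Oct4 (siOct4), was put in Dox at once and was collected at 48 h, with 6 libraries each. These cells were also plated on fibroblasts. No group received Dox without the cassette, so the effects of Dox, of time in culture and of GATA6 cannot be told apart, and XEN cells also differ from the induced cells in strain and medium.

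Values are TPM, a measure of relative transcript abundance that the authors scaled by transcript length and to a common total. Levels can be compared between genes, and between libraries only as shares of that total. Median-of-ratios rescaling, which divides each library by a scale factor drawn from its genes, was run beside the main fits. TPM keep no read numbers, so sequencing depth is unknown, and the spread between libraries is the error used here. Between 12034 and 13109 genes reached 1 TPM in a library of the induction series, and replicates correlated across genes at 0.987 to 0.997 (Pearson, log2 scale). In the siRNA series, with its selected genes, replicates correlated less closely, at 0.929 to 0.990. The checks of the labels held: Gata6 rose from a mean of 0.264 TPM at 0 h to 134 TPM at 16 h and 344 TPM at 168 h, while Pou5f1 fell from 1654 to 63.4 TPM at 168 h, with 0.202 TPM in XEN cells. The gene-level Gata6 value does not separate the transgene from the endogenous gene. Listed markers of PrE summed to 113 to 207 TPM at 0 h and to 24717 to 25638 TPM at 168 h, and in XEN cells they summed to about 12009 TPM. Fibroblast markers were present throughout, with a median sum of 58.6 TPM at 0 h and 151 TPM at 168 h, where 7 of the 12 were called higher and none lower. Of all tested genes 22.6% were called higher and 16.5% lower at 168 h. Thy1, which marks fibroblasts, was at 13.4 to 34.9 TPM in library 3 of every time point but at 1.198 to 4.75 TPM in libraries 1 and 2. In a bulk sample, fewer cells of a type and less RNA per cell cannot be told apart.

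The promoters of Pdgfra and Kit are shown first because these receptor genes lie next to each other on chromosome 5 and both rose, one at once and the other late. Each window is 300 bases around the RefSeq gene start on the plus strand of GRCm38.p6, with CG dinucleotides in capitals. The Pdgfra window is chr5:75152001-75152300 and the Kit window is chr5:75574737-75575036.
Pdgfra: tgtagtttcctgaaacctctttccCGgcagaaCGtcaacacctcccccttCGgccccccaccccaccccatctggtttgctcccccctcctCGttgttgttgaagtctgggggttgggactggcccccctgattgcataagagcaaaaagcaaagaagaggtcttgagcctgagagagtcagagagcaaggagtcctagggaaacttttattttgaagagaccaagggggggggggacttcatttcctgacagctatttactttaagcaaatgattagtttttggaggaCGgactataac
Kit: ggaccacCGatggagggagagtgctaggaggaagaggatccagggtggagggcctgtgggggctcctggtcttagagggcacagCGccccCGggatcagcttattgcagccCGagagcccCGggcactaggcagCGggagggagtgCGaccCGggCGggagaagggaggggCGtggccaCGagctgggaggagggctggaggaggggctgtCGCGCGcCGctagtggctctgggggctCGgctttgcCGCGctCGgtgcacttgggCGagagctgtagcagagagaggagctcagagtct
The Pdgfra window holds 5 CG dinucleotides at 51.0% G and C, and the Kit window holds 20 at 69.0%. Over 32851 RefSeq promoter windows of this length the median was 7.0, with 43.6% of windows at 5 or fewer and 26.5% at 20 or more. The letters AGATAA or TGATAA, and likewise AGATAG or TGATAG, forms of the site that GATA factors recognise, were searched on both strands. Neither of the printed windows held a match. Of the 7 members searched, each in the window nearest its annotated start, only Akt1 had a match, against 29.8% of all windows. Pdgfb and Pdgfrb were not searched.

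In the plots and tests below, a log2 change is a difference of mean log2(TPM + 1), which understates changes of genes at low level. A gene is called higher or lower in the induction series when limma gave a Benjamini-Hochberg adjusted p under 0.05 over the 15057 genes tested and the log2 change was above 1 in size. All 9 members passed the filter for testing, which asked that some group average 1 TPM or more.

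**Figure D1:**
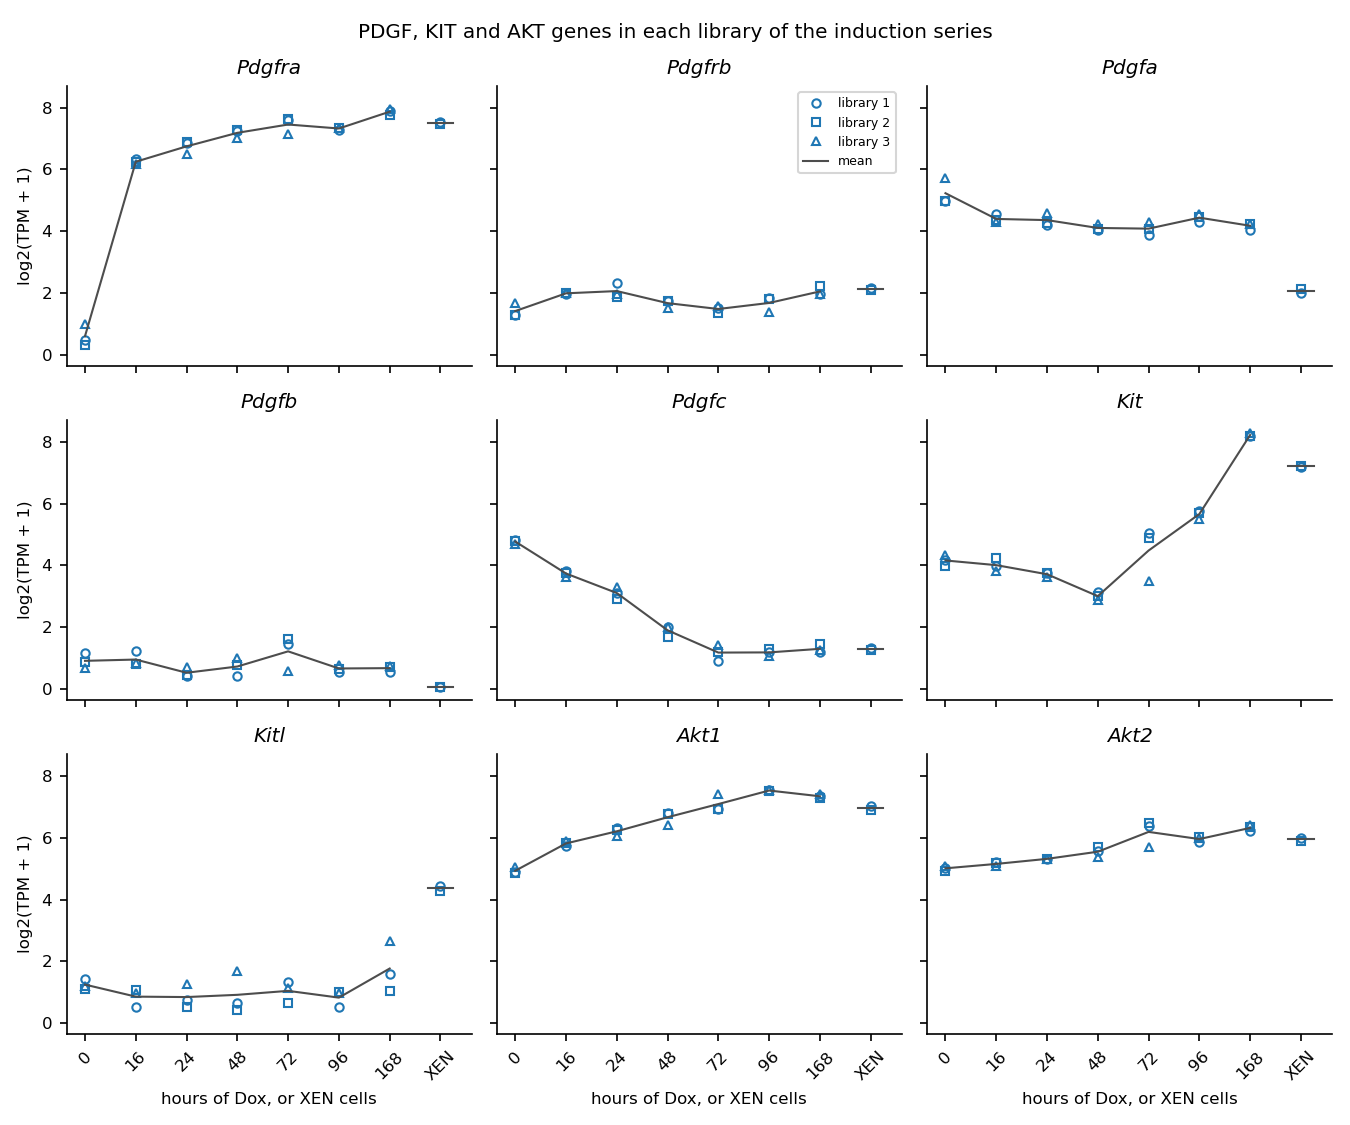
Level of each gene as log2(TPM + 1) in every library of the induction series, over hours of Dox and in XEN cells. Symbols are libraries 1 to 3 (1 and 2 for XEN cells) and the line joins the group means. Pdgfra leaves its 0 h level by 16 h, Pdgfc falls until 72 h, Kit dips at 48 h and then climbs to 168 h, and Kitl is high in XEN cells.

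Pdgfra, the receptor chain that marks PrE, rose within 16 h of Dox and stayed high. At 0 h its libraries 1, 2 and 3 held 0.406, 0.254 and 1.005 TPM. At 16 h they held 79.7, 75.2 and 70.6 TPM, and the groups were far apart. The mean of 0.555 ± 0.397 TPM became 75.2 ± 4.57 TPM (SD, n = 3 in both groups), 135-fold, and the log2 change was 5.64 (SE 0.15, limma adjusted p = 2.76e-15). The gene lies on the plus strand of chromosome 5 (mm10, 75152292 to 75198215), and the libraries keep strand, so RNA from the 2 annotated genes inside it on the other strand is counted apart.

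After 16 h the gain in Pdgfra was gradual. Libraries 1, 2 and 3 were at 115, 117 and 89.9 TPM at 24 h and at 150, 155 and 129 TPM at 48 h. They reached 194, 195 and 140 TPM at 72 h, where library 3 was the low one as at 24 and 48 h. None of the steps between consecutive times passed the fold threshold, and the 72 and 96 h libraries overlapped. The 96 h values were 155, 161 and 162 TPM, and the 168 h values were the highest of the course at 236, 214 and 249 TPM. The mean at 168 h was 233 ± 17.5 TPM (SD, n = 3), 420-fold the 0 h mean, and the gain on the log2 scale was 7.26 (SE 0.15, limma adjusted p = 4.54e-18). XEN cells, at 184 and 177 TPM, lay below all 3 libraries of 168 h, but the log2 difference of -0.36 was not past the threshold (95% interval -0.71 to -0.02, limma adjusted p = 0.0771).

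Pdgfrb, the other PDGF receptor chain, stayed low. It ranged from 1.44 to 4.003 TPM over all libraries, with group means from 1.69 TPM at 0 h to 3.39 TPM in XEN cells. It was 0.64 higher on the log2 scale at 168 h (SE 0.15, limma adjusted p = 0.000654) and 0.72 higher in XEN cells (SE 0.16), which did not reach the fold threshold. At 168 h the 2 receptor chains therefore stood at 233 and 3.17 TPM, both scaled by length. Both receptor genes are also known from fibroblasts, and at 0 h library 3, with the highest sum of fibroblast markers (133 TPM against 58.6 and 46.2), had the highest value of each. The fibroblast marker sum was also higher at 168 h, as given above, though library 3, which had the highest sum there too, held 2.91 TPM of Pdgfrb and library 2 held 3.69 TPM. The part of fibroblast RNA in the Pdgfra and Pdgfrb values was not tested.

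Kit, the receptor for the stem cell factor made by Kitl, moved in 2 directions. At 0 h libraries 1, 2 and 3 held 17.02, 14.7 and 19.2 TPM, and at 16 h they held 14.7, 17.8 and 13.1 TPM with overlap. They were at 12.4, 12.6 and 11.4 TPM at 24 h and at 7.71, 7.13 and 6.30 TPM at 48 h. By 48 h the 3 libraries lay below all earlier ones, and the log2 change from 0 h was -1.15 (SE 0.25, limma adjusted p = 0.000639). With libraries 1 and 2 alone it was -0.998 and the call was lost.

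Kit then turned upwards. At 72 h libraries 1 and 2 had 31.8 and 28.8 TPM, while library 3 had 10.4 TPM, below every 0 h value. At 96 h all 3 were above 0 h, at 53.1, 51.3 and 44.8 TPM, and at 168 h they were at 290, 289 and 312 TPM. The log2 change from 0 h (SE 0.25) was 1.502 at 96 h, with a limma adjusted p of 2.65e-05. At 168 h it was 4.06, a 17.5-fold rise of the mean, with a limma adjusted p of 1.98e-11. The last step, from 96 to 168 h, was the largest at 2.56 (limma adjusted p = 2.13e-07). The steps from 48 to 72 h (1.47, limma adjusted p = 0.000261) and from 72 to 96 h (1.18, limma adjusted p = 0.00525) were both called, but library 3 of 72 h lay far from the others. Without that library the second step was 0.70 and not called, and neither step was called when only the 2 groups compared were fitted.

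Kit in XEN cells was 145 and 147 TPM, well above 0 h (log2 change 3.04, SE 0.28, limma adjusted p = 9.39e-09). That was below the 168 h libraries by 1.02 on the log2 scale (SE 0.28, limma adjusted p = 0.00518). The call against 168 h sat at the fold threshold: the difference was -0.86 after median-of-ratios rescaling, -0.98 without library 3 of 168 h and -0.98 with libraries 1 and 2 alone, each not called. Per unit length, Kit was at 0.0487 of the Pdgfra level at 48 h, at 1.28 of it at 168 h and at 0.809 of it in XEN cells.

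Pdgfa, the ligand whose homodimer signals through PDGFRA alone, was highest before Dox. Libraries 1, 2 and 3 held 30.3, 30.8 and 52.1 TPM at 0 h, where library 3 stood apart. At 16 h they held 22.3, 19.5 and 18.6 TPM, all below 0 h. From 24 to 96 h the values lay between 13.6 and 23.1 TPM, and at 168 h they were 15.4, 18.0 and 18.0 TPM. The log2 change (SE 0.16) was -0.83 at 16 h and -1.12 at 48 h, and for 168 h it was -1.05, with a limma adjusted p of 1.05e-05. The calls at 48, 72 and 168 h rested on library 3 of 0 h, without which the changes were -0.87, -0.90 and -0.80 and none was called. Without library 1 of 168 h the change was -0.98, and without library 1 of 0 h the 24 h change of -1.0001 became a call.

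Pdgfa in XEN cells was at 2.98 and 3.37 TPM, below every library of the time course. The log2 difference was -3.17 from 0 h (SE 0.18, limma adjusted p = 1.15e-11) and -2.12 from 168 h (SE 0.18, limma adjusted p = 2.51e-08).

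Pdgfc, which encodes a ligand secreted in a latent form, fell earlier and further. Libraries 1, 2 and 3 were at 27.1, 26.8 and 25.0 TPM at 0 h and at 13.0, 12.6 and 11.4 TPM at 16 h. At 24 h they were at 7.64, 6.55 and 8.78 TPM and at 48 h at 3.02, 2.22 and 3.02 TPM. Each of these times lay wholly below the one before. The change from 0 h was -1.03 at 16 h (SE 0.13, limma adjusted p = 1.97e-05), which was -0.985 and not called without library 3 of 16 h, and it was -2.87 at 48 h. From 72 h on the level was flat between 0.872 and 1.73 TPM, and the XEN libraries, at 1.52 and 1.396 TPM, fell within that range. At 168 h the log2 change was -3.47 (SE 0.13, limma adjusted p = 2.19e-14).

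Pdgfb, the ligand of both receptor chains, never exceeded 2.07 TPM. In the time course its group means ran from 0.446 TPM at 24 h to 1.44 TPM at 72 h, and no time point was called against 0 h. XEN libraries held 0.0506 and 0.0405 TPM, with a log2 change of -0.85 from 0 h (SE 0.24) that missed the fold threshold and became -2.73, a call, with a pseudocount of 0.1. Summed over Pdgfa, Pdgfb and Pdgfc, ligand RNA amounted to 65.0 ± 11.02 TPM before Dox (SD, n = 3). The sum was 33.4 ± 2.97 TPM by 16 h, 19.7 ± 1.71 TPM by 48 h and 19.2 ± 1.74 TPM by 168 h, with n = 3 throughout. In XEN cells it was 4.68 ± 0.181 TPM (SD, n = 2). The lowest ligand sum was thus in XEN cells.

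Kitl, the ligand of KIT, separated XEN cells from the induced cells. It lay between 0.345 and 2.20 TPM in every library from 0 to 96 h. At 168 h libraries 1, 2 and 3 held 2.004, 1.06 and 5.37 TPM, with library 3 above the others and 168 h overlapping 0 h. XEN libraries held 20.6 and 18.5 TPM, above all others. The log2 difference was 3.11 from 0 h (SE 0.39, limma adjusted p = 6.56e-07) and 2.59 from 168 h (SE 0.39, limma adjusted p = 2.06e-05). Library 3 of 168 h also had the highest fibroblast marker sum, 318 TPM against 151 and 149 TPM, while the XEN libraries had 128 and 132 TPM. The 0 h sums were 58.6, 46.2 and 133 TPM. The part of fibroblast RNA in its Kitl value was not tested.

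Akt1 and Akt2, which encode closely related kinases that act below these receptors, began level and diverged. At 0 h Akt1 was at 28.5, 28.2 and 31.8 TPM and Akt2 at 31.7, 29.2 and 32.8 TPM, with overlap. Akt1 was already above 0 h in all libraries at 16 h, at 51.8, 56.0 and 58.2 TPM, a log2 change of 0.88 that did not reach the fold threshold (SE 0.11, limma adjusted p = 1.97e-05). It passed at 24 h with 78.3, 74.6 and 66.2 TPM (1.28, SE 0.11). It went on through 111, 108 and 84.1 TPM at 48 h and 121, 122 and 168 TPM at 72 h to 185, 181 and 184 TPM at 96 h. At 168 h it was at 161, 153 and 169 TPM, with a change of 2.41 from 0 h (SE 0.11, limma adjusted p = 4.45e-13), and in XEN cells at 128 and 118 TPM.

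Akt2 rose later and less. It was at 35.7, 35.3 and 32.6 TPM at 16 h, at 38.8 TPM in each library at 24 h and at 46.6, 50.4 and 40.7 TPM at 48 h. At 72 h libraries 1 and 2 held 82.3 and 87.7 TPM but library 3 held 51.4 TPM, the same library that was low for Kit and Pdgfra and high for Akt1. At 96 h the values were 57.4, 64.2 and 61.9 TPM, 0.947 above 0 h on the log2 scale. Akt2 was therefore called at 72 h and at 168 h but not at 96 h. At 168 h the values were 72.7, 80.3 and 83.4 TPM, 1.31 above 0 h on the log2 scale (SE 0.13, limma adjusted p = 4.17e-08). XEN cells, at 63.1 and 58.0 TPM, were 0.93 above 0 h, short of the fold threshold. The ratio of Akt1 to Akt2 began at 0.945 ± 0.0378 (SD, n = 3). It was 1.61 ± 0.168 by 16 h, 3.01 ± 0.209 by 96 h and 2.05 ± 0.157 by 168 h, with n = 3 throughout, and averaged 2.03 in XEN cells. At 72 h it ran from 1.39 to 3.27, the upper value from library 3, whose fibroblast marker sum was 175 TPM against 61.0 and 72.1 TPM in the others. The part of fibroblast RNA in the 72 h values was not tested.

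Read as counts, 2 of the 9 members were called at 16 h, Pdgfra and Pdgfc, where 2.77% of all tested genes were called. The count was 3 at 24 h (5.68% of all genes), 5 at 48 h (16.4%), 5 at 72 h (26.2%) and 4 at 96 h (29.5%). At 168 h it was 6, against 39.1% of all genes. Of these, Akt1, Akt2, Kit and Pdgfra were higher, where 22.6% of genes were called higher, and Pdgfa and Pdgfc were lower, where 16.5% were. XEN cells differed from 0 h in 6 members (37.6% of all genes) and from 168 h in 3, Kitl, Kit and Pdgfa (13.9%). These 9 genes were chosen with results of these data known, so their shares describe them and no test was made of the list. The median log2 change at 168 h was 0.64 over the members and 0.09 over all tested genes. After rescaling, the split of all genes at 168 h moved from 3396 higher and 2491 lower to 2883 and 2951. The median over all genes was then -0.05.

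Between consecutive times most members moved by less than the fold threshold. No member was called from 16 to 24 h, when limma called 53 genes in all (0.352%) and 2133 had an unadjusted p under 0.05. Only Pdgfc was called from 24 to 48 h (5.56% of all genes). Kit alone was called in the 3 later steps, to 72 h (3.33%), to 96 h (1.71%) and to 168 h (7.67%). In the last of these 787 genes were higher and 368 lower, and 612 and 494 after rescaling. For XEN cells against 168 h the split was 712 higher and 1380 lower, and 914 and 1088 after rescaling, with the median of all genes at -0.14 before and -0.03 after.

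The order of the levels, per unit length, changed with time. At 0 h Pdgfa, Akt2 and Akt1 led, with libraries that overlapped from one to the next, then Pdgfc and Kit, and Pdgfra was the lowest in mean though its libraries overlapped those of Pdgfb. Pdgfra led at 16, 24, 48 and 72 h, at 72 h with overlap with Akt1. Akt1 led at 96 h. At 168 h the order was Kit, Pdgfra, Akt1, Akt2 and Pdgfa, each without overlap with the next, and in XEN cells it was Pdgfra, Kit, Akt1, Akt2 and Kitl.

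Genes with the most similar course were sought among 11354 genes that reached a group mean of 5 TPM, by Pearson r over the 8 group means. This describes likeness over points that share a time course, and carries no test. Closest to Pdgfra were Sox17 (r = 0.995), Gata6 (0.994), Gata4 (0.989), Bag3 (0.988) and Gm28592 (0.985), so that 3 of the 5 were PrE transcription factor genes. Kit was closest to Klhl20 (0.996), Strn3 (0.993), Palld (0.989), Cd81 (0.988) and Nf1 (0.988). Pdgfc was closest to Fgf15 (0.998), which encodes a fibroblast growth factor, and to Mcm3ap, Gm20605, Parp12 and Gm16211 (0.995 to 0.997).

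For the kinases, Akt1 was most like Gask1b (0.996), Kctd10, Limd1, Csk and Snx7 (0.991 to 0.995), and Akt2 was most like Man1b1 (0.994), Amotl2, Septin2, Nrn1 and Bahd1 (0.990 to 0.992). Among the remaining ligands, Kitl was most like Gkn2 (0.993), Nceh1, Cfap20, 2410124H12Rik and Gkn1 (0.986 to 0.989), and Pdgfa was most like Atp11a (0.985), Tgm2, Sult4a1, Ttc33 and Wdr61 (0.966 to 0.974). Pdgfb reached 0.972 with Gm40040 and 0.948 to 0.959 with Cep192, Tpd52l2, Ogdhl and Dap3, at its low level. Pdgfrb varied too little over the groups for a likeness to be listed. Between members, Akt1 and Akt2 had r = 0.91 and Pdgfc and Akt1 had r = -0.98.

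Genes next to Pdgfra and Kit were read from Scfd2 to Clock on chromosome 5. The end of Pdgfra and the start of Kit (75574916 to 75656722, plus strand) are 376.7 kb apart. Kdr, which encodes a receptor for vascular endothelial growth factor, lies on the minus strand with its nearer end 276.1 kb beyond Kit. At 16 h 3 of the 11 locus genes were called, Pdgfra and the genes just before it, Gsx2 and Chic2, where 2.77% of all genes were. Chic2, a membrane-associated protein gene, was at 13.3, 10.85 and 12.8 TPM at 0 h and at 27.45, 32.0 and 30.8 TPM at 16 h, without overlap (log2 change 1.22, SE 0.10, limma adjusted p = 3.1e-08). Gsx2, a homeobox gene between Chic2 and Pdgfra, was listed at 0.203, 0 and 0 TPM at 0 h and at 1.55, 1.83 and 1.14 TPM at 16 h (1.23, SE 0.12, limma adjusted p = 7.58e-07). Gsx2 was back to 0.0305 to 0.173 TPM at 48 h, whereas Chic2 stayed up and was at 49.0, 49.2 and 54.3 TPM at 168 h.

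At 168 h 6 locus genes were higher and 1 was lower, where 39.1% of all genes were called, with a median log2 change of 1.57 against 0.09 over all genes. Pdgfra and Kit, around which the list was drawn, are part of that count and of that median. Beside Pdgfra and Kit these were Kdr (2.47, SE 0.21), Chic2 (1.96, SE 0.10), Tmem165 (1.93, SE 0.08) and Srd5a3 (1.57, SE 0.11), while Lnx1, a ubiquitin ligase gene, was lower (-1.55, SE 0.19). Values for the rest were 0.83 for Clock, -0.05 for Scfd2, -0.06 for Fip1l1 and -0.05 for Gsx2, none called. Kdr was at 4.74, 4.86 and 11.15 TPM at 168 h, library 3 being the high one, and was lower in XEN cells than at 168 h by 1.72 on the log2 scale (SE 0.23, limma adjusted p = 6.11e-06). Fip1l1 and Lnx1 overlap on opposite strands, which the libraries keep apart.

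**Figure D2:**
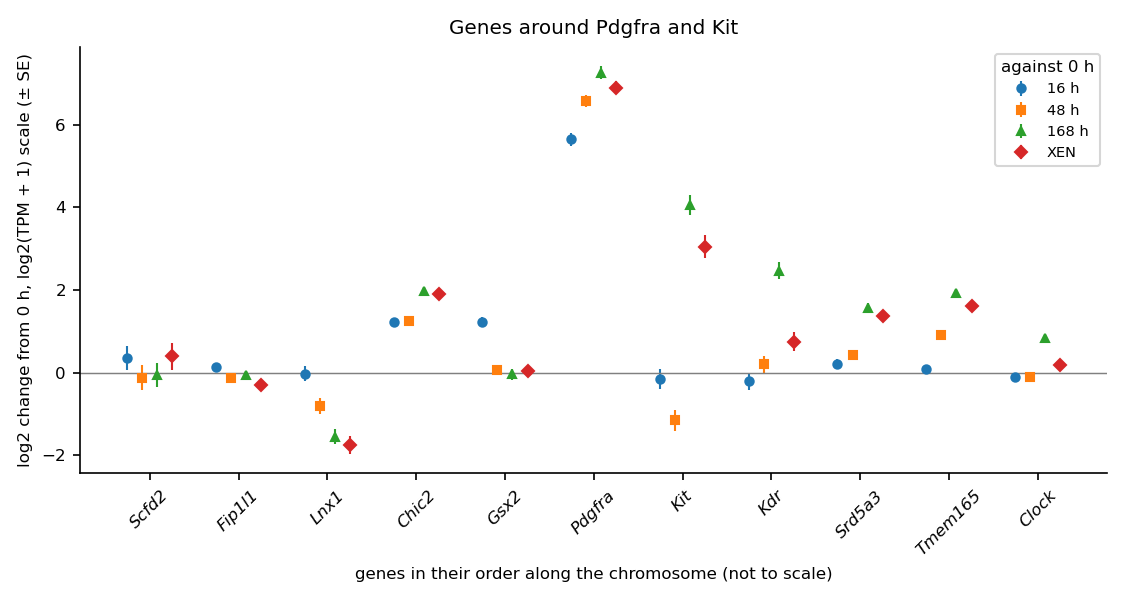
Log2 change from 0 h (log2(TPM + 1) scale, ± SE from limma) of 11 genes in their order along the chromosome, not to scale, at 16, 48 and 168 h of Dox and in XEN cells. Pdgfra is above 5 at every point shown, Chic2 is above 1 at each of them, Gsx2 only at 16 h, and Kit is below 0 h at 48 h and at 4.06 at 168 h.

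Genes that process the ligands were mostly higher at 168 h. Of 6 such genes, 4 were called higher and 1 lower, against 39.1% of all genes called in either direction, with a median log2 change of 1.05. Plat, whose product tissue plasminogen activator can cleave the latent PDGF-CC ligand, went from 0.579, 0.508 and 1.65 TPM at 0 h to 215, 168 and 211 TPM at 168 h (6.74, SE 0.31, limma adjusted p = 2.22e-13). XEN libraries held 416 and 414 TPM. Furin, a protease that matures PDGF-A precursors, rose by 2.42 (SE 0.08) from a mean of 5.25 to 32.4 TPM, and Pcsk7, a related convertase, rose by 1.08. Pcsk6, another convertase, fell by 2.43 (SE 0.10), from 20.5 to 2.95 TPM, after values of 29.9 to 34.7 TPM at 16 h.

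Among 7 further receptors of this class and their ligands, 6 were tested and 3 called at 168 h (39.1% of all genes). Pdgfd, a ligand of PDGFRB, rose by 1.61 (SE 0.20) from 0.592 to 3.89 TPM, and Pdgfrl, a PDGF receptor-like gene, rose by 1.51 (SE 0.20) from 0.792 to 4.14 TPM. Il34, a ligand of the CSF1 receptor, fell by 1.01 (SE 0.20) from 1.14 to 0.0237 TPM. The list median was 0.62. Library 3 of 168 h, with the highest fibroblast marker sum, had the lowest value of its group for both Pdgfd (2.86 TPM) and Pdgfrl (3.01 TPM). The part of fibroblast RNA in the Pdgfd and Pdgfrl values was not tested.

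Of 20 adaptor and effector genes, 7 were higher and 1 lower at 168 h, with a median of 0.42. That is 8 called of 20, near the share of all genes called, 39.1%. The 4 largest were Grb10, an inhibitory adaptor (-2.27, SE 0.18), the tyrosine kinase Src (1.89, SE 0.13), the transcription factor Stat5b (1.77, SE 0.16) and the RAS exchange factor Sos2 (1.75, SE 0.13). None of this list, of the ligand processing list, of the class III list or of the AKT list was called at 16 h.

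PI3-kinase genes were an exception at 16 h, with Pik3r1 and Pik3ap1 called higher (2.77% of all genes were called). Pik3r1, a regulatory subunit, went from a mean of 3.45 to 16.2 TPM (1.96, SE 0.12, limma adjusted p = 9.17e-10). Pik3ap1, an adaptor that binds PI3-kinase, went from 0.122, 0.0812 and 0.0710 TPM at 0 h to 1.16, 1.29 and 1.28 TPM at 16 h and to 18.3, 21.6 and 28.3 TPM at 168 h (4.42, SE 0.19), but was at 3.43 and 3.55 TPM in XEN cells. At 168 h 4 of the 11 tested genes were higher and 2 lower, against 39.1% of all genes called, the latter being Pik3cd, the leukocyte-type catalytic subunit (-2.55, SE 0.15), and Inpp5d, a phosphatase that acts on PIP3 (-1.76, SE 0.23).

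Of 25 regulators and targets of AKT, 9 were higher and 3 lower at 168 h, against 39.1% of all genes called, with a median of 0.53. Tcl1, a coactivator of AKT found in ES cells, was at 66.1, 63.0 and 65.0 TPM at 0 h, at 98.9 to 139 TPM from 16 to 48 h, and at 0.763, 0.447 and 1.26 TPM at 168 h (-5.20, SE 0.17, limma adjusted p = 1.84e-15). Both XEN libraries list it at 0 TPM. Irs1, an adaptor of the insulin receptor, rose by 3.01 (SE 0.14) and Irs2, its relative, by 1.95 (SE 0.16), while Deptor, an inhibitor of mTOR, fell by 2.11 (SE 0.24).

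**Figure D3:**
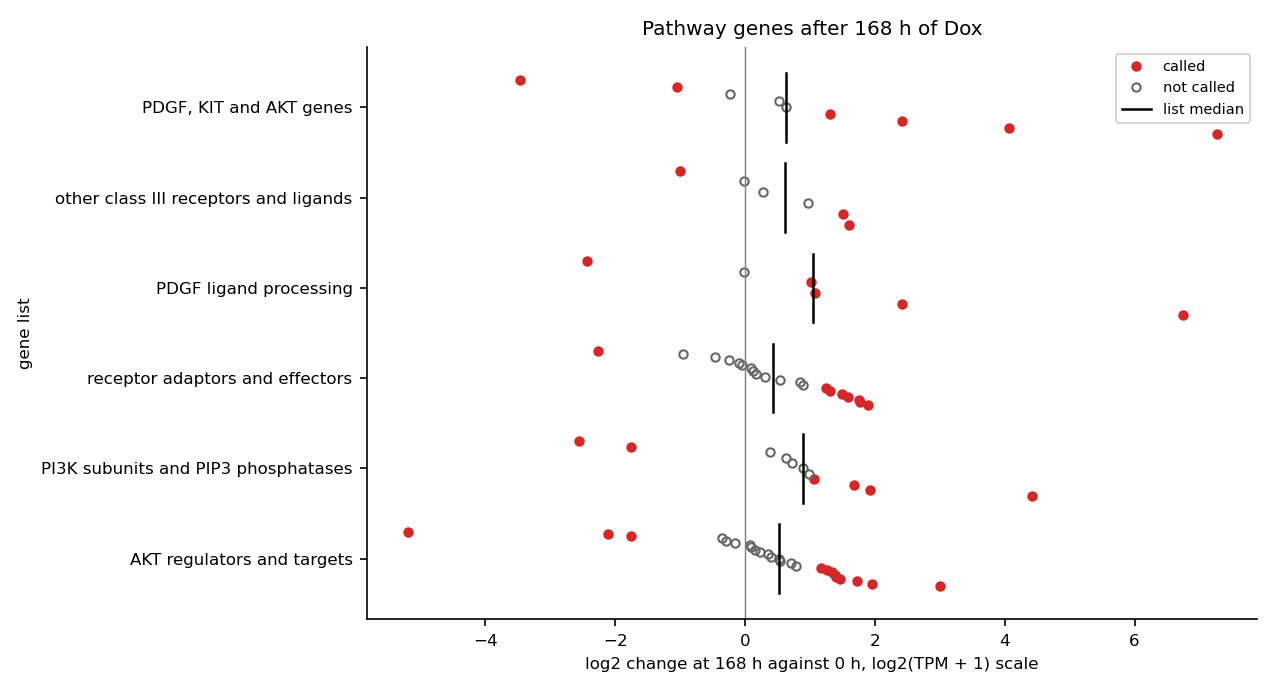
Log2 change at 168 h against 0 h (log2(TPM + 1) scale) of each tested gene in 6 lists. Filled points were called by limma, open points were not, and the vertical bar is the list median. Each list has genes called in both directions, with medians from 0.42 to 1.05.

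Oct4 siRNA was examined last, for 7 members at 48 h of Dox, with a fold threshold of 0.5 on the log2 scale over 6264 tested genes. Pou5f1 was at 782, 895 and 1194 TPM (lowest, median and highest of 6 libraries) with siCTL and at 282, 314 and 387 TPM with siOct4, a log2 change of -1.52 and lower in 6 of 6 numbered pairs (exact permutation p = 0.00216, the smallest that 6 against 6 allow). Gata6 was at 92.6, 110 and 198 TPM with siCTL and at 51.2, 88.1 and 130 TPM with siOct4, a log2 change of -0.50 (exact permutation p = 0.0541; limma adjusted p = 0.326), and was lower in all 6 pairs. Libraries with the same number moved together. Consecutive numbers of 1 group (1 and 2, 3 and 4, 5 and 6) were more alike on average. Their mean r of deviations from the group mean was 0.458, against -0.351 for other numbers, but siCTL 3 and 4 had -0.066. Results are therefore given also with the number as a block and with consecutive libraries averaged.

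Pdgfra was lower with siOct4 in most pairs. The siCTL libraries had 103, 205 and 274 TPM as lowest, median and highest, and the siOct4 libraries 68.4, 129 and 150 TPM. Only siCTL library 3, at 103 TPM, lay inside the siOct4 range. The log2 change was -0.71 (SE 0.23, 95% interval -1.21 to -0.21), and 5 of 6 pairs were lower, with pair differences from -1.53 to 0.01. The exact permutation test gave p = 0.0195 (two-sided), and the paired exact sign-flip test gave p = 0.0625, where 0.03125 is the smallest that 6 pairs allow. With consecutive libraries averaged, 3 against 3, the exact permutation p was 0.1, the smallest that design allows. Across all genes the limma adjusted p was 0.149, so Pdgfra was not called. It was called with the number as a block (limma adjusted p = 0.0206), without siCTL library 3 (-0.89, limma adjusted p = 0.0185), and with libraries averaged and blocked (limma adjusted p = 0.0405).

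Kit moved the other way. The siCTL libraries lay between 5.17 and 8.24 TPM with a median of 7.21 TPM, and the siOct4 libraries between 7.04 and 34.4 TPM with a median of 21.6 TPM. Only siOct4 library 2, at 7.04 TPM, fell within the siCTL range, and Kit was higher in 6 of 6 pairs, by 0.21 to 1.94 on the log2 scale. The log2 change was 1.35 (SE 0.31, 95% interval 0.70 to 2.01, limma adjusted p = 0.0300; exact permutation p = 0.0108), and the mean TPM was 3.06-fold higher. Kit was the one member called, where 2.67% of the table was called, and Kit and Pdgfra were the 2 called with the block (8.57%), where Kit had a limma adjusted p of 0.0042. The call without the block is thin. It was lost on leaving out siCTL library 1, 2, 5 or 6 or siOct4 library 3, 4, 5 or 6, with changes from 1.19 to 1.62 over all single omissions and limma adjusted p of 0.055 to 0.0745 where lost, and with consecutive libraries averaged (limma adjusted p = 0.335), but not with these blocked (limma adjusted p = 0.0231).

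The remaining 5 members were not called with siOct4, without or with the block. Kitl had 0.520, 1.55 and 2.37 TPM as lowest, median and highest with siCTL and 1.18, 2.03 and 4.15 TPM with siOct4 (0.53, 95% interval -0.05 to 1.11). Pdgfa had 11.6, 16.3 and 22.1 TPM against 10.3, 18.0 and 32.2 TPM (0.25, 95% interval -0.34 to 0.84). For Pdgfc the values were 0.542, 3.45 and 4.49 TPM against 0.885, 2.20 and 6.30 TPM (-0.15, 95% interval -0.95 to 0.66). All 3 ligands overlapped widely between the groups, and changes of more than 0.5 in size lie within each interval.

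Akt1 had 64.9, 83.4 and 165 TPM as lowest, median and highest with siCTL and 47.0, 84.7 and 137 TPM with siOct4 (-0.08, 95% interval -0.67 to 0.50). Akt2 had 30.6, 43.6 and 49.6 TPM against 29.3, 41.7 and 58.4 TPM (-0.00, 95% interval -0.43 to 0.42). In both genes siOct4 was lower in pairs 1 to 4 and higher in pairs 5 and 6. The ratio of Akt1 to Akt2 was 2.23 ± 0.543 with siCTL and 2.09 ± 0.378 with siOct4 (SD, n = 6 each).

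Other values moved with these libraries. The 6 fibroblast markers in the siRNA table summed to 205, 192, 28.3, 224, 42.3 and 50.1 TPM in siCTL libraries 1 to 6 and to 71.4, 65.7, 37.6, 30.0, 234 and 211 TPM in siOct4 libraries 1 to 6. The siOct4 sum was thus the lower one in pairs 1, 2 and 4 and the higher one in pairs 3, 5 and 6. PrE markers summed to 4206 to 8796 TPM with siCTL and 3120 to 5956 TPM with siOct4. Of the 8 in that sum none was called without the block, where 2.67% of the table was called. With the block, where 8.57% was called, Dab2 (mean 883 against 448 TPM), Gata4 (249 against 162 TPM) and Sox7 (76.4 against 39.9 TPM) were called lower. Sox17 had means of 44.8 and 45.1 TPM. Trophoblast markers summed to 154 to 202 TPM with siCTL and 452 to 1082 TPM with siOct4, without overlap, and 3 of the 8 in the table were called higher, the keratins Krt8 (1.71) and Krt18 (2.20) and the placental gene Plac1 (1.78). Most of that sum was Krt8 (mean 70.5 against 241 TPM) and Krt18 (69.1 against 337 TPM). With the block, where 8.57% of the table was called, 6 of the 8 were called. Hand1, Krt7 and Tfap2c were then called beside Krt8, Krt18 and Plac1. Eomes, a listed trophoblast factor, had means of 9.44 TPM with siCTL and 6.19 TPM with siOct4, not called without or with the block. In the induction series the sum over all 10 listed trophoblast markers went from a median of 61.8 TPM before Dox to 598 TPM at 168 h, with 664 TPM in XEN cells. The part of these cell types in the changes of Pdgfra and Kit was not tested. The table holds selected genes, and its median log2 change of -0.12 became 0.01 after rescaling, which moved the split of all calls from 59 higher and 108 lower to 144 higher and 153 lower. After that rescaling Pdgfra was at -0.56 (limma adjusted p = 0.0825; exact permutation p = 0.00649) and Kit at 1.49 (limma adjusted p = 0.00271).

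**Figure D4:**
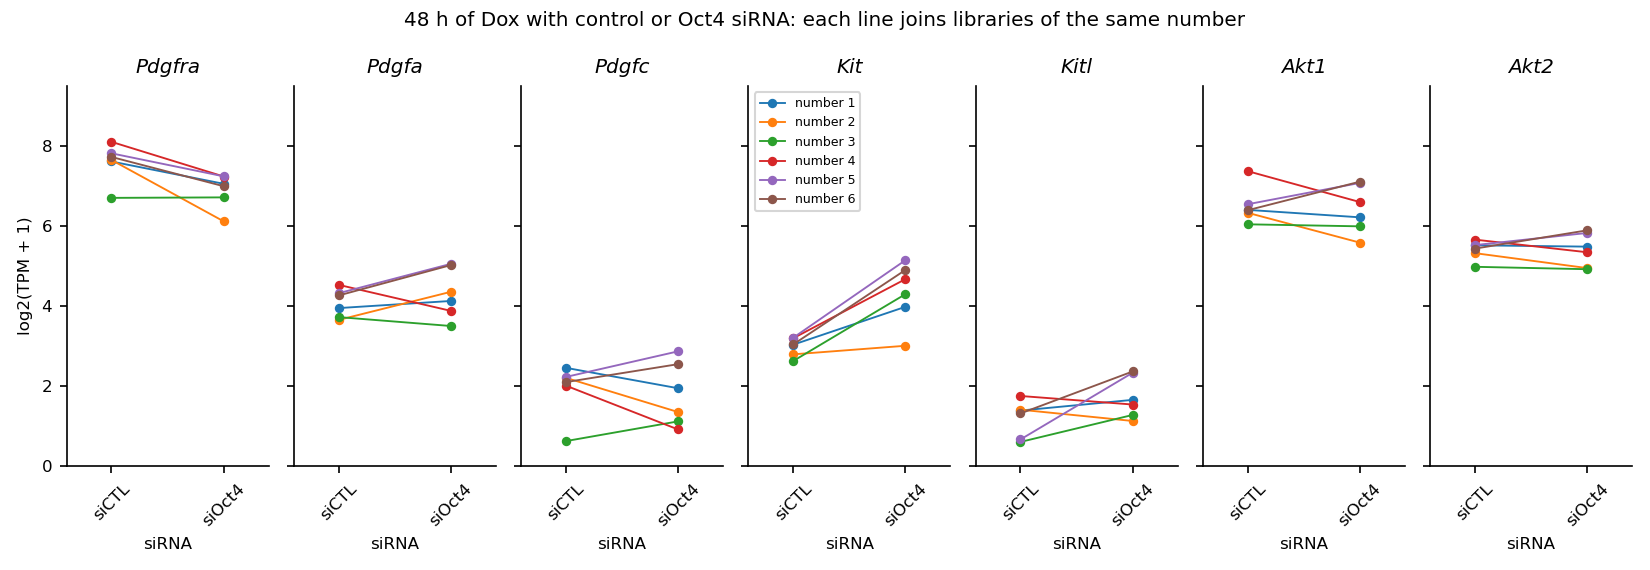
Level of 7 genes as log2(TPM + 1) with control siRNA and with Oct4 siRNA after 48 h of Dox, where each line joins the libraries of the same number. Pdgfra falls in 5 of 6 pairs, Kit rises in 6 of 6, and the lines of Akt1 and Akt2 fall in pairs 1 to 4 and rise in pairs 5 and 6. The scale factors of the libraries, not shown, have that last pattern too.

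Few other pathway genes of the siRNA table were called. Tcl1, the AKT coactivator, was at 66.2, 89.7 and 140 TPM as lowest, median and highest with siCTL and at 19.9, 36.7 and 44.7 TPM with siOct4, without overlap (-1.56, SE 0.23, limma adjusted p = 0.00184). Plat was at 3.72, 7.53 and 11.1 TPM against 10.3, 19.9 and 27.0 TPM (1.25, SE 0.28, limma adjusted p = 0.0288). Tcl1 was the 1 gene called of 11 AKT regulators and targets in the table and Plat the 1 called of 5 ligand processing genes, where 2.67% of the table was called. None of 10 adaptors and effectors and none of 7 PI3-kinase genes was called. With the block, where 8.57% of the table was called, Pik3r1 was called lower (-0.84), at 8.01, 24.6 and 35.0 TPM against 6.91, 13.3 and 20.2 TPM. Pik3ap1 (-0.80) and Deptor (-0.81) were called lower with the block as well. Beside Pdgfra and Kit the siRNA table held Chic2 (-0.20), Tmem165 (-0.22) and Srd5a3 (-0.11) from the same stretch of chromosome 5, none of them called.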

How the data were processed

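RNA-seq was read from 2 deposited tables of TPM. The authors sequenced stranded polyA libraries paired-end, aligned them with STAR to mm10, quantified genes with RSEM and omitted outliers found by principal component analysis; versions and annotation are not given in the sources used here. TPM sum to 999764 to 999881 per library of the induction table, so depth is unknown. The siRNA table also holds the authors' group means and their text calls of response, which were not used. Groups came from the sample titles. The 9 members and all lists were chosen with earlier results of these data known. log2(TPM + 1) was tested with limma 3.58.1 in R 4.3.3 (trend and robust eBayes, Benjamini-Hochberg) over genes that averaged 1 TPM or more in some group. Replicates are separate differentiations or knockdowns according to the study. In the siRNA series libraries of the same number deviated together (r of deviations 0.236 to 0.707 over 6 pairs, mean 0.328 against -0.064 for other numbers), so the block was used beside the main fit. The study describes independent knockdowns, while consecutive numbers of 1 group also deviated together on average. Named genes were the 9 members, the largest called genes of each list at 168 h (at most 4), those called with siOct4, all genes of the Pdgfra-Kit locus, and the 5 genes most like each member; other named genes were chosen after their values were seen. Positions are mm10 and GENCODE M21, promoters RefSeq on GRCm38.p6. Exact permutation tests and plots used Python 3.11.15, numpy 2.4.6, pandas 2.3.3 and matplotlib 3.10.9. The fitting was tested on simulated data.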

Additional observations from a re-analysis of the deposited data

Results flagged for a closer look

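Among the 16 sets of 6 siRNA libraries screened (7 members and Pou5f1 in each siRNA group), 2 held a library far from the rest, where chance gives about 0.8. Sets of different genes share the same libraries, so the 2 are not independent. Both were siCTL library 3. Its Pdgfra level was 6.7038 on the log2(TPM + 1) scale, while the other siCTL libraries lay between 7.61 and 8.10, so the gap was 0.649 of the whole range. Its Pdgfc level was 0.625, while the others lay between 2.01 and 2.46, a gap of 0.757 of the range. Its fibroblast marker sum, 28.3 TPM, was the lowest of the siCTL libraries. Its scale factor in the median-of-ratios rescaling, 0.705, was the lowest too, with the other siCTL libraries between 1.05 and 1.34. The gaps are in values before rescaling, so they include a difference of the whole library. Without this library the Pdgfra change with siOct4 was -0.89 (limma adjusted p = 0.0185) in place of -0.71 (limma adjusted p = 0.149).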

How the results depend on the processing

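Members called against 0 h numbered 2, 3, 5, 5, 4 and 6 from 16 to 168 h, and calls of Pdgfra, and of Pdgfc from 24 h on, held under all alternatives run. Without a fold minimum the counts were 5 at 16 h, 5 at 24 h and 6 for XEN cells against 168 h, and 1, 5, 4, 2 and 5 for the successive steps from 16 to 168 h. Against 0 h this also added calls of Akt2 at 48 h, Pdgfa and Akt2 at 96 h and Pdgfrb at 168 h. In XEN cells against 0 h it added Pdgfrb, Pdgfb and Akt2. Smaller moves of a count under the pseudocount, rescaling and libraries 1 and 2 alone are not listed here. A pseudocount of 0.1 gave 2 at the step to 72 h and 2 at the step to 168 h, and fitting only the compared groups gave 0 at the steps to 72 h and to 96 h. With libraries 1 and 2 alone, an alternative chosen after seeing the data, the counts were 3 at 48 h and 0 at the step to 96 h. Leaving out 1 library at a time gave 1 to 2 members at 16 h (1 without library 3 of 16 h), 0 to 1 at the step to 96 h (0 without library 3 of 72 h), 1 to 2 at the step to 168 h (2 without library 1 or 2 of 168 h) and 0 to 2 with siOct4. It also gave 3 to 4 members at 24 h, 4 to 5 at 48 h and at 72 h, and 5 to 6 at 168 h. For XEN cells against 168 h it gave 2 to 3. With siOct4 an adjusted p under 0.01 gave 0, averaging consecutive libraries 0, and averaging with the block 2. Removing a trend with gene length gave 2, and 2 with the block as well, where Kitl (0.68, limma adjusted p = 0.0414) or Pdgfra joined Kit. Averaging with the block and both length fits were chosen after seeing the data.

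Pairing by number was taken up as a block. In the siRNA series the block gave 2 members in place of 1, and the paired sign-flip of Pdgfra gave the same difference of -0.71 with exact p = 0.0625, weaker than p = 0.0195, as did averaging, -0.71 with exact p = 0.1. In the induction series the pairing by number did not reach the limit set for every pair (mean r of deviations 0.0333, from -0.186 to 0.219 over 77 pairs), although Thy1 was high in library 3 of every time point, and the block gave 2, 3, 5, 5, 4 and 6 members from 16 to 168 h and changed no other call.

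Changes near 0 that were not called changed sign. Pdgfb at 16 h was 0.04 (-0.0915 to 0.174 over single omissions, -0.0197 with libraries 1 and 2), and Kit at 16 h was 0.0305 with libraries 1 and 2. Pdgfc in XEN cells against 168 h was 0.0109 with the block, 0.0905 rescaled and -0.0586 to 0.0696 over omissions. With siOct4, single omissions gave -0.409 to 0.0288 for Pdgfc, -0.221 to 0.0867 for Akt1 and -0.101 to 0.0929 for Akt2. Rescaling gave 0.0664 for Akt1 and 0.145 for Akt2, and removing the length trend gave 0.0477 and 0.157, the same with the block. The cause was not tested. Because TPM keep no read numbers, low values such as those of Pdgfb, Kitl and Gsx2 carry an unknown counting error.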
